A study of Homo sapiens with 5 samples.

Results

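The genes described here are 37 genes of protein folding and quality control in the endoplasmic reticulum (ER), taken by gene symbol from the 58929 genes of each library's table. They comprise 12 chaperones and their partners, 13 folding enzymes, 7 factors of ER-associated degradation and 5 sensors or regulators of the unfolded protein response. All 37 passed the filter on low counts, and the smallest count of any of them in any library was 107. The 5 libraries came from A549, an established human lung adenocarcinoma cell line, and the design text of the series describes them as ribosome footprint profiling, which reads the pieces of mRNA covered by ribosomes. Their molecule is labelled as total RNA and the protocol also mentions fragmented input RNA, so the libraries are footprints only as far as the design text says so. Stable RBMS1 knockdown was represented by 2 libraries, sh1088 and sh1196, each made with its own hairpin, beside 1 short hairpin (sh) control. Stable RBMS1 overexpression was represented by 1 library, R1A, beside 1 control named pCDH. All 5 cultures received cycloheximide at 100 ug/mL for 15 min before lysis, and lysates were treated with RNase I for 5 min. The labels name no separate cultures or clones beyond the hairpins, so p-values reflect only how these libraries vary, and that variation may be technical. In such bulk libraries fewer cells of a type and less RNA per cell cannot be told apart, and without an RNA library beside each one neither can mRNA level and ribosome occupancy.

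Secreted and membrane proteins fold in the ER. HSPA5 (BiP), an HSP70 chaperone, binds their unfolded chains, J-domain proteins such as DNAJB11 deliver clients to it, and exchange factors such as SIL1 and HYOU1 release them. Lectin chaperones (CALR, CANX) hold glycoproteins, protein disulfide isomerases such as PDIA4 and P4HB make and shuffle disulfide bonds, and chains that fail are drawn back to the cytosol by the ligase SYVN1 and its partner SEL1L. When unfolded chains build up, the membrane sensors ERN1 (IRE1), ATF6 and EIF2AK3 (PERK) start the unfolded protein response. ERN1 cuts XBP1 mRNA so that an active transcription factor is made, MBTPS1 (site-1 protease) takes part in releasing the active part of ATF6, and both factors act on promoters that hold ER stress response elements.

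The promoters of these genes are shown because such an element is a known shared input of many ER folding genes. RefSeq promoters (250 bases before to 50 after each gene start, build GRCh38.p14) were at hand for 36 of the 37 genes, and PDIA3 had no entry. On both strands, the ER stress response element (CCAAT, 9 bases of any kind, then CCACG) was present in 7 of the 36 genes, against 0.0916% of the 27305 genes in the table, and the second form (ATTGG, 1 base of any kind, then CCACG) in 3 of the 36, against 0.0696%. The UPR element core TGACGTGG was present in 3 (DNAJC10, HYOU1 and TXNDC5), against 0.927%, and the one in HYOU1 overlapped its second-form match. The 7 genes with the first form were HSPA5, HSP90B1, CALR, CANX, PDIA6, CRELD2 and XBP1, and the 3 with the second form were HYOU1, SDF2L1 and HERPUD1. The matches to either stress response element that lie outside every GENCODE 29 exon are printed with 12 bases on each side, or with 5 for PDIA6 and XBP1, 5′ to 3′ on the strand of the gene, the matched letters in capitals. A match describes letters only and shows no binding in these cells.
HSPA5, chr9:125241379-125241421, minus strand: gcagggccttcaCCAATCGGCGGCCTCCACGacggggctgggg
CALR, chr19:12938372-12938414, plus strand: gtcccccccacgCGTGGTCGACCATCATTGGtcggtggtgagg
PDIA6, chr2:10812848-10812876, minus strand: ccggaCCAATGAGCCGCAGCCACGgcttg
CRELD2, chr22:49918542-49918584, plus strand: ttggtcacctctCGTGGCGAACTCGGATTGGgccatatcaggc
XBP1, chr22:28800598-28800626, minus strand: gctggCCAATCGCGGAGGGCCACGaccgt
HYOU1 upstream match, chr11:119057368-119057402, minus strand: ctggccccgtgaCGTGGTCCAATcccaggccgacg
HYOU1 downstream match, chr11:119057262-119057296, minus strand: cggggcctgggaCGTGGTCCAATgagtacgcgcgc
SDF2L1, chr22:21642102-21642136, plus strand: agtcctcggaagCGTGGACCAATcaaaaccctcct
HERPUD1, chr16:56932013-56932047, plus strand: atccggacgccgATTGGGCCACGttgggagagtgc
In HSPA5, PDIA6, XBP1 and HERPUD1 the element runs in the direction of the gene, and in CALR, CRELD2, HYOU1 and SDF2L1 it is read on the opposite strand. Counted from the start used for the RefSeq promoter, the HSPA5 match begins 66 bases before it, that of CRELD2 80 and that of XBP1 52. These starts differ from the ends of the GENCODE gene spans printed below, and the CRELD2 match lies within the GENCODE span of that gene.

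The libraries held between 10327747 and 13980843 expected counts each. Nuclear protein-coding genes took 37.7% of them in the sh control, 42.2% and 66.0% in sh1088 and sh1196, 66.3% in the pCDH control and 62.3% in R1A. Of 15 genes that mark A549 or lung adenocarcinoma epithelium, 14 reached 1 CPM (counts scaled to library size) in at least 1 library. Fibroblast markers reached it for COL1A1 and THY1 of 8, immune markers for CD14 and CD68 of 8, and endothelial markers and those of plasma or exocrine cells for 0 of 6 each. RBMS1 itself stood at 31.0 CPM in the sh control, 18.3 and 13.4 in sh1088 and sh1196, 24.7 in the pCDH control and 37.01 in R1A, so that its order followed the labels. The knockdown difference of RBMS1 did not pass edgeR's quasi-likelihood test (log2 fold change -0.93, SE 0.45, adjusted p = 0.828).

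Per length, most of the folding machinery was well above the typical gene, while its sensors and a few other members were near it. On the scale of TPM rescaled over nuclear protein-coding genes, the median of the 37 genes was 94.4 in the sh control, 173 and 188 in sh1088 and sh1196, 150.1 in the pCDH control and 93.1 in R1A, while the median of all such genes above 0 lay between 14.5 and 19.0. CANX, the membrane-bound lectin, was among the highest in every library, from 1647 TPM in the sh control to 6342 in the pCDH control. TPM also depends on the length assigned to a gene, which could differ between libraries, for CANX from 928 to 1442 nt. Without length, CANX stood at 1173 scaled CPM in the sh control and 2751 in the pCDH control. PPIB, a prolyl isomerase of the ER, ranged from 1699 TPM in R1A to 3771 in sh1088, and HSP90B1 (GRP94) from 1105 in the sh control to 2758 in the pCDH control. HSPA5 reached 2245 TPM in sh1088 and 2135 in sh1196, against 551 in the sh control, 411 in the pCDH control and 329 in R1A. Among protein-coding genes that placed HSPA5 43rd and 40th in the hairpin libraries, and 293rd, 416th and 548th in the other 3. The membrane sensors and the protease MBTPS1 lay at the other end, ATF6 between 15.8 and 45.8 TPM, ERN1 between 17.7 and 45.3, EIF2AK3 between 12.1 and 41.0 and MBTPS1 between 15.7 and 26.6. The degradation factors EDEM1, between 18.5 and 38.5 TPM, and EDEM3, between 14.9 and 26.0, were as low. In the sh control SIL1 at 20.6 and PDIA5 at 24.8 were low too. XBP1 was the exception among the regulators, at 294 TPM in the sh control and 138 in sh1196.

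**Figure D1:**
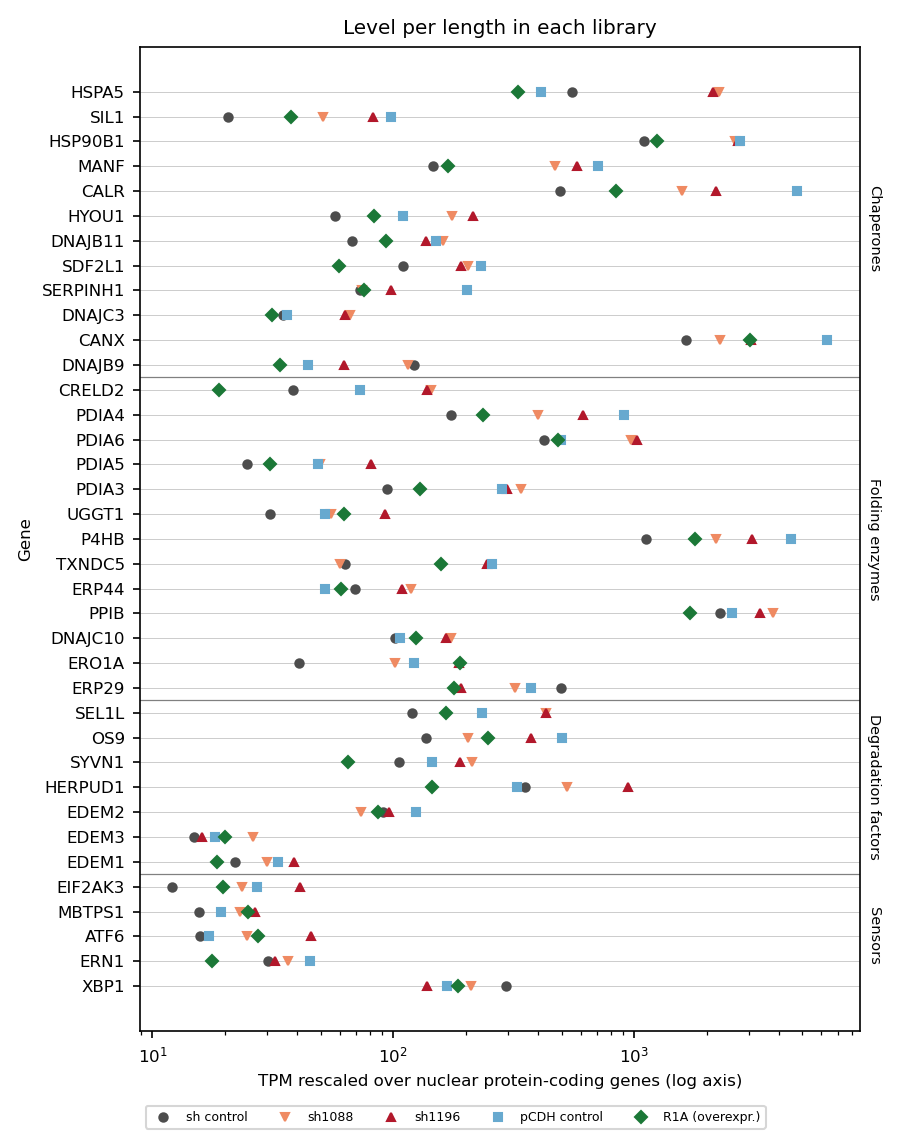
Each row is 1 of the 37 genes, grouped by role, and each point is its level in 1 of the 5 libraries as TPM rescaled over nuclear protein-coding genes, on a log axis. HSPA5 sits at 2135 and 2245 in the hairpin libraries and at 551 or below in the other 3, while CALR and CANX are highest in the pCDH control, at 4739 and 6342.

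Together the 37 genes took a larger share of nuclear protein-coding counts in both hairpin libraries and in the pCDH control than in the other 2. The share was 1.29% in the sh control, 2.82% and 3.00% in sh1088 and sh1196, 2.61% in the pCDH control and 1.35% in R1A. HSPA5 alone took 0.207%, 0.869%, 0.787%, 0.148% and 0.111% in the same order, so the pCDH control reached a similar total with less from HSPA5. CALR also differed, at 751, 966 and 2055 scaled CPM in sh1088, sh1196 and the pCDH control. Other genes were high in each of these libraries, such as HSP90B1 at 1670, 2185 and 1902, against 657 in the sh control and 959 in R1A. Chaperones made up most of the share of the 37 genes, with 0.680% of these counts in the sh control and 1.87% in sh1196. The sensors and regulators were a small part, 0.0723% in the sh control and 0.0493% in sh1196. Summed fibroblast markers followed a related order, at 5.11 CPM in the sh control, 11.3 and 42.3 in sh1088 and sh1196, 29.2 in the pCDH control and 10.3 in R1A, with 1 of the 8 at 0 in every library. Summed immune markers ran from 28.3 CPM in the sh control to 109.4 in the pCDH control, with 4 of 8 at 0 in every library. The 15 markers of A549 or lung epithelium summed to 13860 CPM in the sh control, 12400 and 10480 in sh1088 and sh1196, 8580 in the pCDH control and 17510 in R1A. The part of any of these sums in the result was not tested. Endothelial markers summed to at most 1.18 CPM and those of plasma or exocrine cells to at most 0.937.

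In RBMS1 knockdown against the sh control, chaperones and folding enzymes stood higher in both hairpin libraries, degradation factors were mixed, and sensors had a median of 0.25. Of the 37 genes 31 had an edgeR log2 fold change above 0, as did 8075 of all 14913 genes tested. The median of the 37 was 0.79, against 0.07 over all genes tested. HSPA5 was 3.91-fold higher, SIL1 and CRELD2 3.21-fold and 3.20-fold, HSP90B1 3.00-fold and MANF 2.92-fold. XBP1 lay lowest, at a log2 fold change of -0.98 (SE 0.56). None of these differences passed the test after adjustment: edgeR called 0 of the 37, and 0% of all genes tested, and the smallest adjusted p among the 37 was 0.828. At an unadjusted p under 0.05, 8 of the 37 were higher (HSPA5, CALR, SIL1, MANF, PDIA3, PDIA4, PDIA5 and CRELD2), where 3.27% of all genes were, and 0 were lower, where 2.61% of all genes were. DESeq2, run on the same counts, called 1 of the 37, HSPA5, at an adjusted p of 0.049, where it called 0.114% of all genes. The fit had 1 residual degree of freedom and both hairpins shared 1 control.

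**Figure D2:**
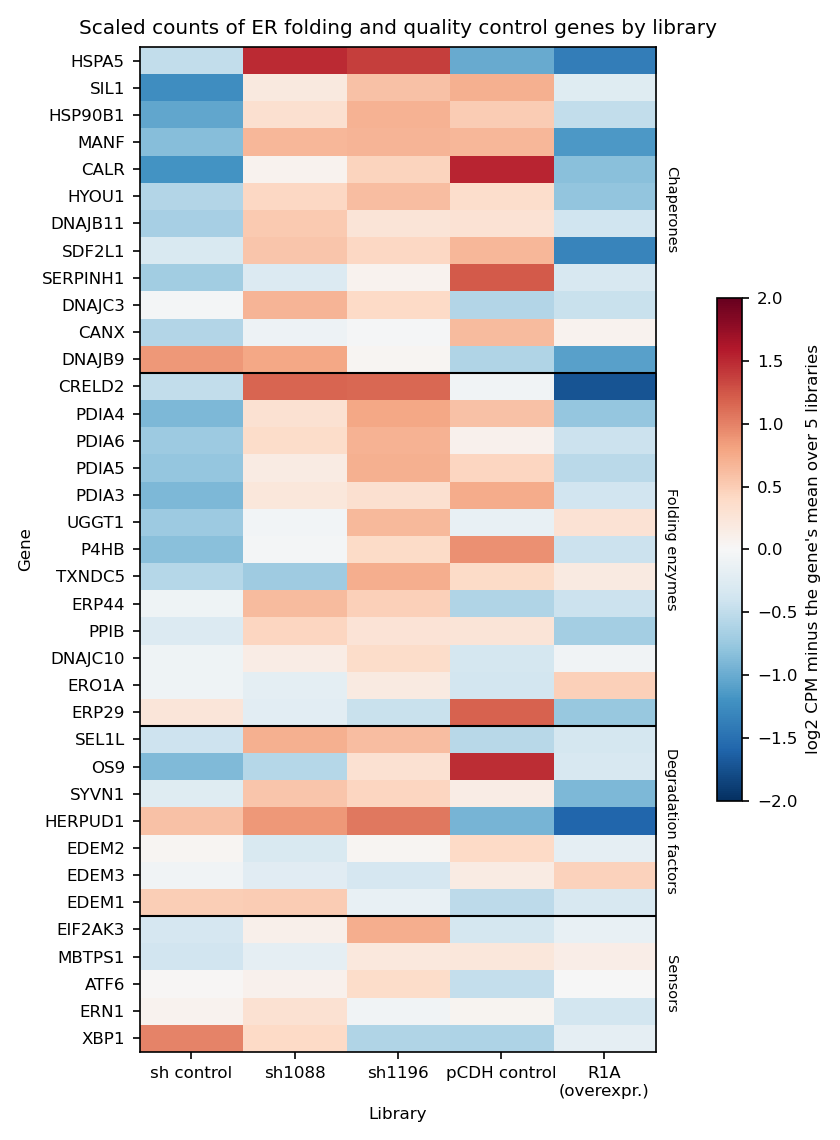
Rows are the 37 genes ordered by role and by knockdown fold change, columns are the 5 libraries, and color is the log2 scaled CPM minus the gene's mean over the libraries, from blue (lower) to red (higher). HSPA5 and CRELD2 are red in the hairpin libraries only, whereas CALR, OS9 and SERPINH1 are darkest in the pCDH control.

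Among the chaperones, 11 of 12 lay above 0 in knockdown, with a median log2 fold change of 1.12. HSPA5 (ENSG00000044574.8, chromosome 9, 125234853 to 125241330, minus strand, GRCh38) was at 1132 scaled CPM in the sh control, 4488 and 4167 in sh1088 and sh1196, 788 in the pCDH control and 611 in R1A. Both hairpin libraries were above all 3 others with no overlap, and its log2 fold change was 1.97 (SE 0.79). MANF, a secreted ER stress protein that binds HSPA5, was at 69.3 scaled CPM in the sh control, 196.9 and 198.8 in sh1088 and sh1196, 197.5 in the pCDH control and 56.1 in R1A. The hairpin libraries and the pCDH control lay close together there, and the log2 fold change against the sh control was 1.55 (SE 0.53). SIL1, the exchange factor of HSPA5, was at 13.7 scaled CPM in the sh control, 37.3 and 48.7 in sh1088 and sh1196, 53.5 in the pCDH control and 27.5 in R1A. Its lowest library was the sh control, and its log2 fold change was 1.68 (SE 0.49). CALR was at 310.0 scaled CPM in the sh control, 751 and 966 in sh1088 and sh1196, 2055 in the pCDH control and 397 in R1A. The pCDH control was thus above both hairpin libraries, and the log2 fold change against the sh control was 1.502 (SE 0.62). The other chaperones ran from 1.59 for HSP90B1 through 1.14 for HYOU1, 1.10 for DNAJB11, 0.82 for SDF2L1, 0.64 for the collagen chaperone SERPINH1, 0.61 for DNAJC3 and 0.56 for CANX to -0.39 for DNAJB9. DNAJB9, a J-domain partner of HSPA5, was the one chaperone below 0, and with library size scaling in place of TMM it stood at 0.081.

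Folding enzymes followed the same pattern, with 12 of 13 above 0 and a median log2 fold change of 1.06. CRELD2, an ER stress protein with disulfide isomerase activity (ENSG00000184164.14, chromosome 22, 49918167 to 49927540, plus strand), was at 23.7 scaled CPM in the sh control, 74.4 and 74.0 in sh1088 and sh1196, 31.6 in the pCDH control and 10.0 in R1A. As for HSPA5, both hairpin libraries were above all 3 others, and the log2 fold change was 1.68 (SE 0.49). PDIA4 was at 251 scaled CPM in the sh control, 579 and 796 in sh1088 and sh1196, 701 in the pCDH control and 273 in R1A. PDIA5, a less abundant isomerase that overlaps SEC22A on the same strand, was at 15.95 scaled CPM in the sh control, 30.4 and 44.5 in sh1088 and sh1196, 36.6 in the pCDH control and 18.6 in R1A. For both, the pCDH control lay between the hairpin libraries, and the log2 fold changes against the sh control were 1.49 (SE 0.61) for PDIA4 and 1.26 (SE 0.50) for PDIA5. PDIA3, the isomerase that works with CALR and CANX, was at 54.5 scaled CPM in the sh control, 118.0 and 127 in sh1088 and sh1196, 169 in the pCDH control and 77.6 in R1A. Its log2 fold change was 1.20 (SE 0.50), and its level is uncertain because its processed copy PDIA3P1 held 50, 232, 410, 84 and 130 counts beside 437, 1133, 1632, 2943 and 920 for PDIA3 in the same order. PDIA6, UGGT1, the glycoprotein folding checker, and P4HB followed at 1.29, 1.10 and 1.06. Smaller differences were those of TXNDC5 (0.79), ERP44 (0.68), PPIB (0.66), DNAJC10 (0.39) and ERO1A (0.12), the oxidase that recharges the isomerases. ERP29, an isomerase-like protein without the usual active site, stood at -0.53 (SE 0.47). The hairpins parted on TXNDC5, at -0.13 in sh1088 and 1.298 in sh1196 as log2 ratios to the sh control. TXNDC5 is uncertain besides, since it shares its locus with the readthrough gene BLOC1S5-TXNDC5.

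Of the 7 degradation factors, the ligase SYVN1 and its partner SEL1L stood higher in knockdown against the sh control, and the mannosidase-like EDEM proteins did not. The median log2 fold change of the 7 was 0.41, and 4 were above 0. SEL1L (ENSG00000071537.14, chromosome 14, 81471549 to 81533861, minus strand) was at 154 scaled CPM in the sh control, 336 and 315 in sh1088 and sh1196, 140.9 in the pCDH control and 162.5 in R1A. SYVN1, whose locus overlaps FAU on the same strand, was at 77.15 scaled CPM in the sh control, 134 and 123 in sh1088 and sh1196, 101.2 in the pCDH control and 48.9 in R1A. Both hairpin libraries were above all others for each gene, with log2 fold changes of 1.11 (SE 0.54) and 0.77 (SE 0.50). HERPUD1, which recruits the ligase complex, was at 244 scaled CPM in the sh control, 297 and 339.5 in sh1088 and sh1196, 85.3 in the pCDH control and 53.9 in R1A. Here the 3 libraries of the sh vector were all above the 2 of the pCDH vector, and the knockdown log2 fold change was 0.41 (SE 0.53). OS9, the lectin that hands glycoproteins to SEL1L, was at 69.55 scaled CPM in the sh control, 85.6 and 157 in sh1088 and sh1196, 354 in the pCDH control and 102.3 in R1A. The pCDH control was the highest library for OS9 by a wide margin, and the log2 fold change was 0.83 (SE 0.56). EDEM1, EDEM2 and EDEM3, which trim glycans of misfolded proteins, stood at -0.24, -0.12 and -0.18, and each turned above 0 with library size scaling.

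For the 5 sensors and regulators the median log2 fold change was 0.25, and XBP1 alone lay below 0. XBP1 (ENSG00000100219.16, chromosome 22, 28794555 to 28800597, minus strand) was at 264 scaled CPM in the sh control, 174 and 87.9 in sh1088 and sh1196, 86.8 in the pCDH control and 117 in R1A. The sh control was its highest library, and sh1196 could not be told from the pCDH control. These counts do not separate the spliced from the unspliced form of XBP1 mRNA. EIF2AK3 was at 13.3 scaled CPM in the sh control, 18.1 and 27.7 in sh1088 and sh1196, 13.1 in the pCDH control and 15.2 in R1A, with a knockdown log2 fold change of 0.81 (SE 0.50). ATF6 was at 61.9 scaled CPM in the sh control, 65.0 and 78.7 in sh1088 and sh1196, 44.0 in the pCDH control and 60.7 in R1A, with a log2 fold change of 0.25 (SE 0.47). Both hairpin libraries lay above the other 3 for these genes, by little for ATF6. ERN1 was at 28.9 scaled CPM in the sh control, 34.2 and 26.4 in sh1088 and sh1196, 28.6 in the pCDH control and 21.5 in R1A, and the hairpins lay on either side of the sh control. MBTPS1 was at 26.7 scaled CPM in the sh control, 30.6 and 40.3 in sh1088 and sh1196, 40.7 in the pCDH control and 38.2 in R1A, and only the sh control and sh1088 were low. Their log2 fold changes were 0.10 (SE 0.45) and 0.44 (SE 0.46).

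Taken 1 library at a time, the hairpins gave similar medians and unequal counts. At least 2-fold above the sh control were 11 of the 37 genes in sh1088, where 3.36% of 10456 genes were, and 17 in sh1196, where 10.4% of 10486 genes were. The medians of the log2 ratio were 0.71 and 0.77. XBP1 stood at -0.60 and -1.59 and OS9 at 0.30 and 1.17. The 2 ratios share the sh control and are therefore not independent of each other. The 10 genes with either ER stress response element had a median knockdown log2 fold change of 1.22, with 9 above 0, and the 26 without one a median of 0.67, with 21 above 0. Against the pCDH control the medians were 0.33 and 0.11. XBP1 was the gene that held an element and stood lower.

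How far the knockdown values rest on the sh control can be read from the other control library. The pCDH control itself was at least 2-fold above the sh control for 11 of the 37 genes (HSP90B1, CALR, CANX, SERPINH1, SIL1, MANF, PDIA3, PDIA4, PDIA5, P4HB and OS9), where 17.3% of all genes were, and at least 2-fold below it for DNAJB9, HERPUD1, EDEM1 and XBP1, where 19% of all genes were. When the pCDH control served as the reference, the median knockdown log2 fold change of the 37 genes was 0.11 in place of 0.79. Of the 37 genes 23 were above 0, and 14 turned direction. Over all genes tested against that control the median was 0.05, and 8049 of 15508 were above 0. No share of all genes that turned is given. CALR turned from 1.502 to -1.24, OS9 from 0.83 to -1.53, SERPINH1 from 0.64 to -1.31 and XBP1 from -0.98 to 0.61. HSPA5 stood at 2.47 (SE 0.82) against the pCDH control, HERPUD1 at 1.92 (SE 0.59), CRELD2 at 1.24 (SE 0.49), SEL1L at 1.22 (SE 0.57), ERP44, which retains partly folded proteins, at 1.17 (SE 0.56) and DNAJC3, a cochaperone of HSPA5, at 1.15 (SE 0.51). These 6 genes, the highest of the 37 against the pCDH control, were named after their values were seen. They stood higher in knockdown with either control, but so did others. Among those were EIF2AK3 at 0.82 and PDIA6 at 0.46 against the pCDH control. Both hairpin libraries were above the other 3 for 13 of the 37 genes (HSPA5, HYOU1, DNAJC3, PDIA6, DNAJC10, CRELD2, ERP44, PPIB, HERPUD1, SEL1L, SYVN1, ATF6 and EIF2AK3), where 6.72% of all genes showed that order, and below the other 3 for EDEM3, where 6.43% did. The pCDH control was the highest library for 11 of the 37, where it was so for 29.9% of all genes, and R1A the lowest for 11, where it was so for 15.5%. The vector and the difference between the control libraries cannot be told apart, with 1 library of each.

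**Figure D3:**
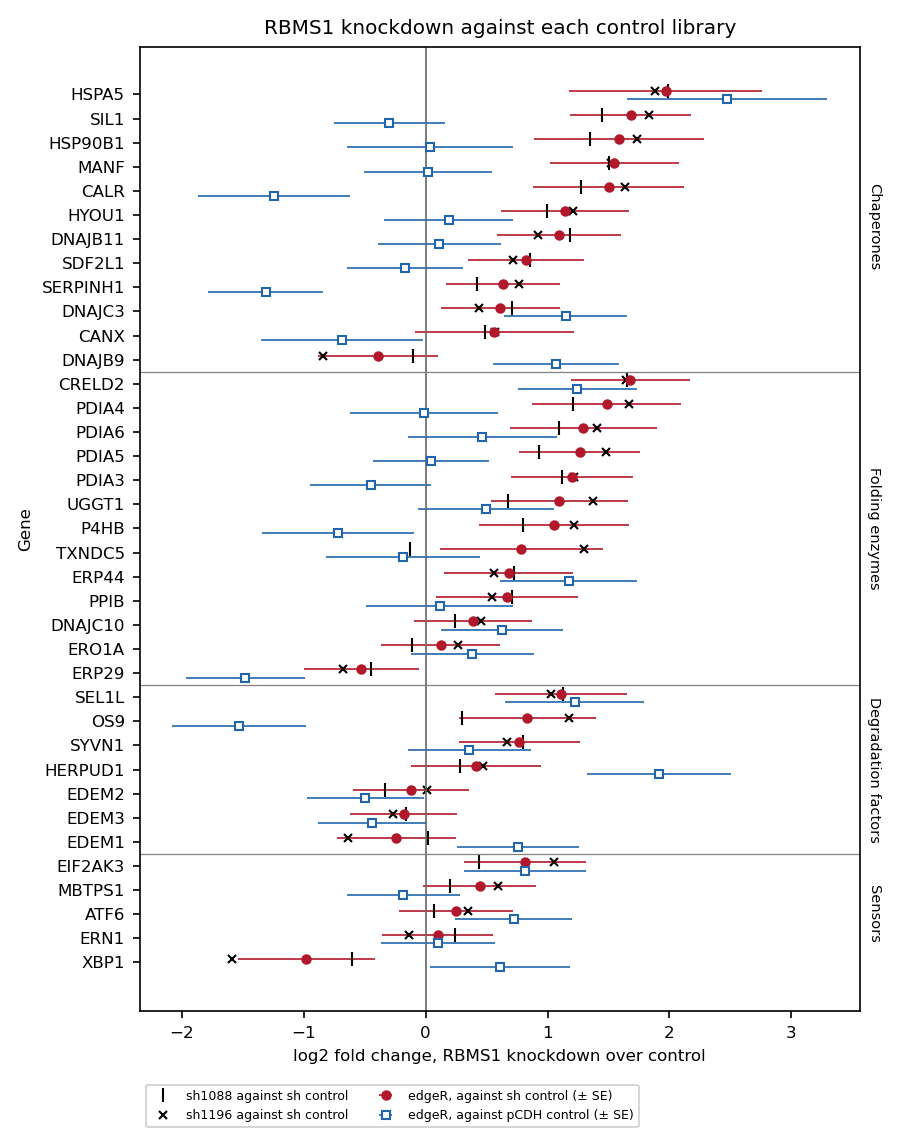
Rows are the 37 genes and the axis is the log2 fold change of RBMS1 knockdown over a control: filled circles are edgeR values against the sh control and open squares against the pCDH control, both with SE bars, and ticks and crosses are sh1088 and sh1196 each against the sh control. HSPA5, CRELD2 and SEL1L stay right of 0 with either control, while CALR moves from 1.502 to -1.24.

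In RBMS1 overexpression against the pCDH control, chaperones and folding enzymes stood lower in R1A and the sensors did not move together. CALR was lowest at a log2 ratio of -2.37 (95% counting interval -2.42 to -2.33), followed by SDF2L1, a partner of the HSPA5 J-domain proteins, at -1.98 (-2.18 to -1.79), ERP29 at -1.93 (-2.05 to -1.82) and MANF at -1.82 (-1.94 to -1.70). At least 2-fold lower were 12 of the 37 genes (HYOU1, CALR, SERPINH1, SDF2L1, MANF, PDIA3, PDIA4, P4HB, CRELD2, ERP29, SYVN1 and OS9), where 13.7% of 10441 genes were. None was at least 2-fold higher, where 14.6% of genes were. The median log2 ratio was -0.57, against 0.06 over all genes. Of the 37 genes 26 lay below 0, as did 4941 of 10423 genes with a ratio. By role the medians were -0.97 for chaperones, -0.94 for folding enzymes, -0.56 for degradation factors and 0.21 for sensors and regulators. HSPA5 stood at a log2 ratio of -0.37 (-0.41 to -0.33). The upper end was held by ERO1A at 0.85 (0.75 to 0.96), ATF6 at 0.46 (0.32 to 0.61), XBP1 at 0.44 (0.33 to 0.54) and UGGT1 at 0.43 (0.35 to 0.52). This is 1 library against 1, so no test was made. The intervals describe counting error alone, and they treat each count as a separate molecule, which copies made by PCR are not. Against the sh control the median log2 ratio of R1A was 0.076, beside 0.05 over all genes. There 5 of the 37 were at least 2-fold lower and 2 at least 2-fold higher, with no share over all genes given. With this control 14 genes went from below to above 0, among them CALR, SERPINH1, PDIA3, PDIA4, P4HB and OS9 of the 12 just named. DNAJC3, ERP44, EDEM1, XBP1 and ATF6 went from above to below 0.

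The 2 libraries of this comparison also differed in fragment length, 52.3 nt on average in the pCDH control and 40.9 nt in R1A. The log2 ratio moved with the GC content of transcripts, with a Spearman rho of -0.58 across 9980 genes, which share these libraries and are not replicates. For the pCDH control over the sh control rho was 0.40, and for the hairpins over the sh control it was 0.03 and 0.13. With the GC trend taken out the median of the 37 genes stayed at -0.57, beside 0.07 over all genes. Of the 37 genes 32 then lay below 0, as did 4633 of the 9980. At least 2-fold lower were 8 in place of 12, with no share over all genes given for the ratio without the trend. CALR was then at -2.07, ERP29 at -1.92 and MANF at -1.48, while SDF2L1 went from -1.98 to -0.94, CRELD2 from -1.66 to -0.92 and SYVN1 from -1.05 to -0.43.

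**Figure D4:**
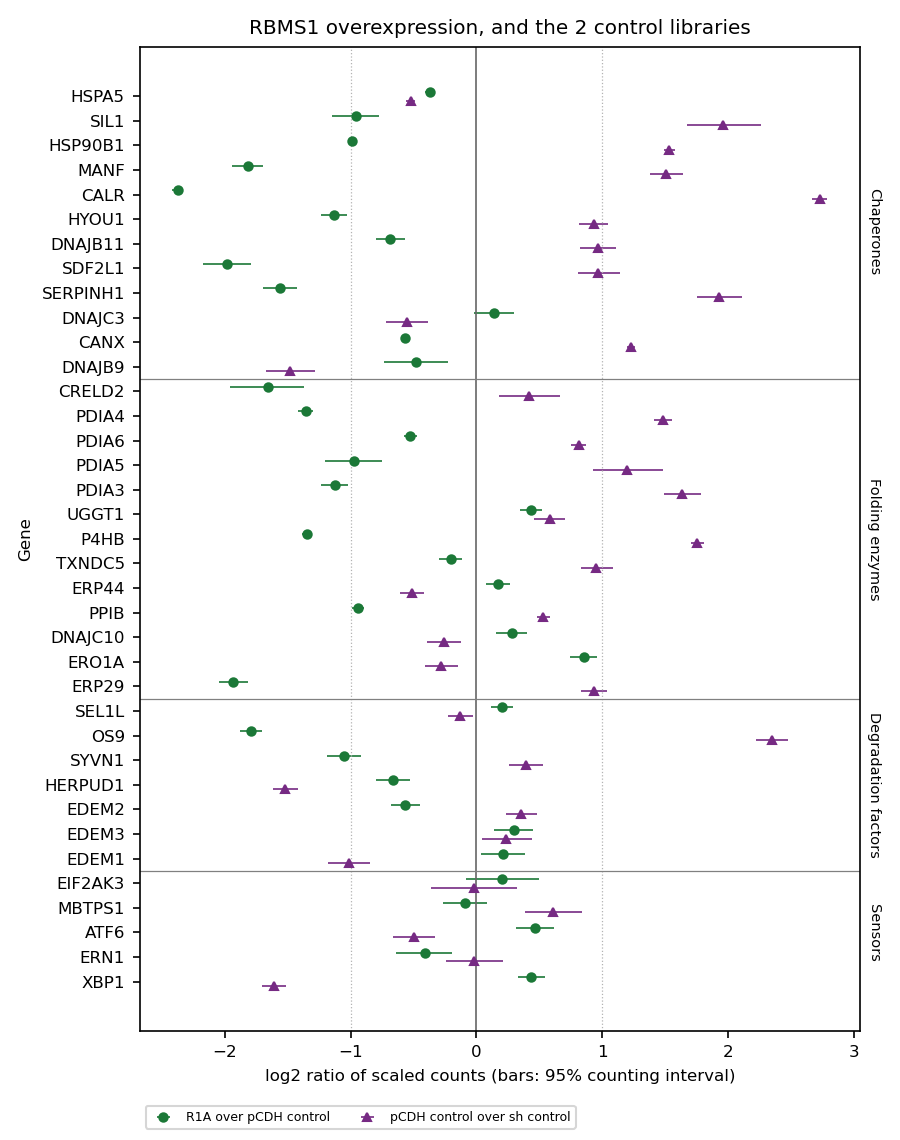
Rows are the 37 genes and the axis is a log2 ratio of scaled counts with its 95% counting interval as a bar: circles are R1A over the pCDH control and triangles the pCDH control over the sh control. CALR lies at -2.37 in the first ratio and at 2.73 in the second, and ERO1A is the rightmost circle at 0.85.

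Across all 5 libraries, with RBMS1 coded -1, 0 and 1 for knockdown, control and overexpression and a term for the vector, most of the 37 genes had a slope below 0. The median slope was -0.55 on the log2 scale per step, against 0.02 over all 15827 genes. Of the 37 genes 31 were below 0, as were 7746 of all genes. CALR had a slope of -1.85 (SE 0.49), CRELD2 -1.65 (SE 0.39), MANF -1.64 (SE 0.41) and PDIA4 -1.41 (SE 0.45), whereas XBP1 stood at 0.77 (SE 0.43). edgeR called 0 of the 37 after adjustment, where it called 0.00632% of all genes, and the smallest adjusted p among the 37 was 0.634. At an unadjusted p under 0.05, 15 of the 37 were lower at a higher RBMS1 code, where 3.27% of all genes were, and 0 were higher, where 3.34% were. These 15 were 8 chaperones, 5 folding enzymes and the degradation factors SYVN1 and OS9, with no sensor among them. Without the vector term 5 of the 37 reached an unadjusted p under 0.05 in either direction. Over all genes 154 did so without that term, in place of 1046 with it. DESeq2 called 4 of the 37 on the same counts, CALR (adjusted p = 0.0038), MANF (0.0076), CRELD2 (0.019) and PDIA4 (0.037), where it called 0.348% of all genes. The slope of HSPA5 was -1.24 (SE 0.61), with log2 ratios to the sh control of 1.99 and 1.88 in the hairpin libraries and a ratio of -0.37 for R1A over the pCDH control.

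The authors' deposited table for knockdown gave an adjusted p under 0.05 for 15 of the 37 genes as higher, where it did so for 1.69% of its genes, and for 0 as lower, where it did so for 1.77%. In that authors' deposited table HSPA5 had an adjusted p of 1.73e-09 at a log2 fold change of 1.96, and SEL1L one of 0.0074 at 1.11. Its fold changes for the 37 genes differed from the edgeR values by only -0.0072 to -0.0046 on the log2 scale, so the tables differ in the error they assign and not in the size. For overexpression, the authors' deposited table compared 1 library with 1. No spread between replicates underlies its adjusted p-values, and its calls are not counted here. Its log2 fold change was -2.35 for CALR and 0.80 for ERO1A. Its overexpression fold changes departed from the ratios computed here by -0.19 for EDEM2 to 0.75 for ERN1, although its count columns equal those of the libraries. HSPA5 stood at 0.01 in that authors' deposited table.

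Genes of the same pathway outside the 37 were read from 7 further lists, in which edgeR called 0 genes in knockdown. Their values, like those of the 37, depended on the control. Against the pCDH control 17 of 25 other folding enzymes and lectins turned direction, 13 of 20 other chaperones and 16 of 25 other degradation factors. So did 10 of 15 other sensors, 9 of 12 genes of collagen modification, 6 of 17 genes of the EIF2AK3 arm and 4 of 7 RNAs cut by ERN1. The share of all genes that turned is not given. Over all genes tested 8075 of 14913 lay above 0 against the sh control and 8049 of 15508 against the pCDH control. Of 25 other folding enzymes and lectins 24 lay above 0, with a median log2 fold change of 0.54, but against the pCDH control 7 did, with a median of -0.52. QSOX1, a sulfhydryl oxidase, stood at 1.42 (SE 0.69), UGGT2 at 1.27 (SE 0.49) and PRKCSH, a subunit of glucosidase II, at 1.24 (SE 0.62). Against the pCDH control they stood at 0.17, 0.47 and -1.65. Of 20 other chaperones and ER calcium proteins 17 lay above 0 (median 0.59), led by NUCB2 at 0.99, NUCB1 at 0.99 and SDF4 at 0.85, and against the pCDH control 6 did (median -0.41), with these genes at 0.35, -0.87 and -1.28. Of 12 genes of collagen modification 10 lay above 0 (median 0.83), with P3H1 at 1.53, P3H4 at 1.02025 and P4HA2 at 0.95, and against the pCDH control 1 did (median -0.97), with these genes at -0.86, -1.88 and -0.25. Other degradation factors had a median of 0.17 over 25 genes, and of -0.16 against the pCDH control. Among them UBE2G2 stood at 0.95 and MAN1B1 at 0.79 (-0.20 and -0.71 against the pCDH control), and DERL3 held 0, 10, 36, 14 and 7 counts in the sh control, sh1088, sh1196, the pCDH control and R1A. Other sensors and regulators had a median of 0.12 over 15 genes (0.08 against the pCDH control), with RTCB, the ligase that joins cut XBP1 mRNA, at 0.56, TRAF2 at 0.56 and NFYB at -0.51.

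Of 17 genes of the EIF2AK3 arm 10 lay below 0, or 58.8% where 45.9% of all genes did, with a median of -0.21, and the median was 0.48 against the pCDH control. CHAC1, an ATF4 target that degrades glutathione, was at 29.9 scaled CPM in the sh control, 9.58 and 7.84 in sh1088 and sh1196, 9.70 in the pCDH control and 4.21 in R1A, with a knockdown log2 fold change of -1.75 (SE 0.45). NUPR1, a stress-induced nuclear protein, was at 48.7 scaled CPM in the sh control, 24.3 and 7.92 in sh1088 and sh1196, 26.6 in the pCDH control and 3.54 in R1A, with one of -1.57 (SE 0.65). In both genes the sh control was the highest library and R1A the lowest. ASNS, asparagine synthetase, was at 199.7 scaled CPM in the sh control, 114 and 94.0 in sh1088 and sh1196, 11.0 in the pCDH control and 40.2 in R1A, and its log2 fold change turned from -0.91 against the sh control to 3.26 against the pCDH control. RNAs that ERN1 is known to cut had a median of -0.11 over 7 genes (-0.49 against the pCDH control), with COL6A1 at 2.44 (SE 0.88; -0.82 against the pCDH control), HGSNAT at -0.78 and PMP22 at 0.25. None of the genes named from these lists passed edgeR's test in knockdown after adjustment.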

How the data were processed

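Expected counts, estimated per gene by RSEM, and TPM were deposited by the authors for each library, per the file headers. The authors also deposited a comparison table per arm with log2 fold changes and adjusted p-values, per the file headers. Bowtie, STAR 2.4.2, RSEM 1.3.1 and DESeq2 are named, per the submitters' processing notes. The genome build is not given in the sources used here, nor is the annotation. Of 58929 gene identifiers 58656 matched GENCODE 29, which gave positions and GC content.

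Expected counts were rounded and tested with edgeR 4.0.16 (quasi-likelihood test, TMM scaling, filterByExpr by group, Benjamini-Hochberg adjustment over all genes at 0.05) in R 4.3.3. The knockdown fit had 1 residual degree of freedom and the fit on RBMS1 level 2. Scaled CPM (counts over the effective library size) used 1 TMM scaling over all 5 libraries. Comparisons of 1 library with 1 are log2 ratios with exact conditional 95% counting intervals, counted over genes with mean CPM of at least 5. TPM was rescaled to an equal total over nuclear protein-coding genes. The GC trend was a lowess fit (fraction 0.3). The edgeR and interval steps were first tested on simulated data with known changes, from which no value is reported. DESeq2 1.42.0 and limma-voom (limma 3.58.1) served as alternatives.

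The 37 genes and all lists were chosen with earlier results of these data known. Values in every library are given for the 4 genes of each role with the smallest knockdown p and for every sensor, and the 3 with the smallest p are named from each further list. Of the 37 genes 16 overlap another gene on the same strand. Which promoter matches to print was settled after they were found.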

Additional observations from a re-analysis of the deposited data

How the results depend on the processing

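Of the 37 genes, all kept the direction of their knockdown value with DESeq2 size factors, upper quartile scaling, DESeq2, limma-voom, either low-count filter, all 5 libraries in the fit and nuclear protein-coding genes alone. The last of these was added after the data were seen. For RBMS1 level the filter set by the design matrix was run first, and the filter by group took its place after its values were seen. No member passed edgeR's adjusted test under any of these. With library size scaling the knockdown median was 1.35, that of all genes went from 0.07 to 0.62, and DNAJB9 (0.081), EDEM1 (0.24), EDEM2 (0.46) and EDEM3 (0.36) turned above 0. With rescaled TPM the median was 1.15, and EDEM1 (0.64) and EDEM3 (0.50) turned. Against the pCDH control the median was 0.11, beside 0.05 over all genes. There 14 genes turned: CALR -1.24, CANX -0.69, SERPINH1 -1.31, DNAJB9 1.07, SIL1 -0.30, SDF2L1 -0.17, PDIA3 -0.45, PDIA4 -0.013, P4HB -0.72, TXNDC5 -0.19, EDEM1 0.76, OS9 -1.53, XBP1 0.61 and MBTPS1 -0.18. Without either knockdown library the knockdown median ranged from 0.71 to 0.77. Leaving out either hairpin gave TXNDC5 -0.13 to 1.298, ERO1A -0.11 to 0.27, EDEM1 -0.64 to 0.016, EDEM2 -0.34 to 0.011 and ERN1 -0.13 to 0.24, so these 5 turn between hairpins.

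Over all genes, edgeR called 0 in knockdown, but 27 with library size scaling, 102 without a filter, 6 at a mean CPM of at least 5, 93 against the pCDH control and 4 over nuclear protein-coding genes, and DESeq2 called 17, of which 1 was among the 37. For RBMS1 level edgeR called 1 gene, but 36 with library size scaling, 89 without a filter, 2 at a mean CPM of at least 5, and 0 without the vector term, with the filter set by the design matrix or over nuclear protein-coding genes. DESeq2 called 55, of which 4 were among the 37. Leaving out a knockdown library gave 30 to 136 calls and a median slope of -0.75 to -0.74. That slope was -0.97 with library size scaling, -0.61 with upper quartile scaling, -0.55 without a filter, -0.58 at a mean CPM of at least 5 and -0.35 without the vector term. Without that term 5 of the 37 in place of 15 reached an unadjusted p under 0.05, and 154 in place of 1046 over all genes. The overexpression median was -0.70 with library size scaling and -0.69 with rescaled TPM. Against the sh control it was 0.076, beside 0.05 over all genes, with 5 of the 37 at least 2-fold lower and 2 higher. There 19 genes changed sign, among them 6 that had been at least 2-fold lower: CALR (0.36), SERPINH1 (0.37), PDIA3 (0.51), PDIA4 (0.12), P4HB (0.41) and OS9 (0.56). With the GC trend out 8 of the 37 in place of 12 were at least 2-fold lower, with no share over all genes given. The cause of these shifts was not tested. No paired analysis was possible because the groups compared share fewer than 2 replicate numbers.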
